A study of Mus musculus with 19 samples.

Results

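The venous identity genes described here are Nr2f2, Ephb4, Nrp2 and Lrg1, followed over sorted endothelial cells of 3 mouse lymphoid tissues. They were chosen by name, as the probe sets annotated with 1 of these symbols alone. Earlier results of these data were known when these genes and the gene lists below were chosen. Each had 1 probe set, so they make up 4 of the 19938 genes measured. RNA was hybridised to 19 single-channel expression arrays in 7 groups. Every group came from BALB/c mice, an inbred strain, with no transgene or treatment named in the labels, and each sample mixed adults of both sexes in equal parts, at an age of 6 to 8 weeks. The blood vessels by which lymphocytes enter lymphoid tissue are high endothelial venules, and HEC are their lining cells. HEC were sorted from Peyer's patches, which lie in the wall of the small intestine (3 arrays), from mesenteric lymph nodes, which drain the gut (2 arrays of MAdCAM1+PNAd+ cells and 2 of MAdCAM1+ cells), and from peripheral lymph nodes (4 arrays). Capillary cells came from Peyer's patches (3 arrays), mesenteric nodes (2 arrays) and peripheral nodes (3 arrays). MAdCAM1 is the mucosal addressin and PNAd the sulfated epitope read by L-selectin. The labels give no gates for the capillary sorts or for the HEC sorts of Peyer's patches and peripheral nodes, and they do not say how many animals were pooled. Signals are on the log2 scale and were centred within each probe set. A difference of 1 is therefore 2-fold, and a value compares arrays for 1 gene and not one gene with another.

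Veins and arteries are told apart early in development, and much of the difference is kept by adult endothelium. Nr2f2 encodes COUP-TFII, an orphan nuclear receptor that sets vein fate and holds back Notch signalling, the pathway that sets artery fate. Ephb4 is the receptor tyrosine kinase of veins, and its ligand ephrin-B2, from Efnb2, marks arteries. Nrp2 is a co-receptor for VEGF-C and for semaphorin 3F and is found on veins and lymphatics. Lrg1 is a secreted leucine-rich glycoprotein of venules that binds endoglin in transforming growth factor beta signalling in the mouse, and it is also an acute-phase and neutrophil product. High endothelial venules are post-capillary venules, and the comparison made here asks how HEC and capillary cells differ in these genes and whether the difference holds in each tissue.

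The stretches just before the 4 gene starts are shown because base composition there sets the genes apart from each other in a way the arrays do not use. Each is the 250 bases upstream of the RefSeq start in build GRCm38.p6, 5′ to 3′ on the gene's strand, with every CpG in capitals. They are, in order, chr7:70366747-70366996 on the minus strand for Nr2f2, chr5:137349859-137350108 on the plus strand for Ephb4, chr1:62703067-62703316 on the plus strand for Nrp2, and chr17:56121947-56122196 on the minus strand for Lrg1.
Nr2f2: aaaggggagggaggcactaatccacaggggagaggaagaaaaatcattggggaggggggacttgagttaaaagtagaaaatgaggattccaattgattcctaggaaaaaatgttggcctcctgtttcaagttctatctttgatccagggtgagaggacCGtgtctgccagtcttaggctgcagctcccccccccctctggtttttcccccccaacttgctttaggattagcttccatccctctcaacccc
Ephb4: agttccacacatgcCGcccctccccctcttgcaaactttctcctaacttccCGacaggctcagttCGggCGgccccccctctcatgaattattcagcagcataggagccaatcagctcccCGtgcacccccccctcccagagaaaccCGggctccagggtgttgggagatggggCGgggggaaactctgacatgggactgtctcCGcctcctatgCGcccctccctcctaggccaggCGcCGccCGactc
Nrp2: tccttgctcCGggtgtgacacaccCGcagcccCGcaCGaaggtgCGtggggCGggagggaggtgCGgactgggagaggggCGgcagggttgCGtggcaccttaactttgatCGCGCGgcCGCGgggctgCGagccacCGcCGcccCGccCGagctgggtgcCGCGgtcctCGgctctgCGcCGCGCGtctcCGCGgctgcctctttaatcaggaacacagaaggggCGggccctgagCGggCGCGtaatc
Lrg1: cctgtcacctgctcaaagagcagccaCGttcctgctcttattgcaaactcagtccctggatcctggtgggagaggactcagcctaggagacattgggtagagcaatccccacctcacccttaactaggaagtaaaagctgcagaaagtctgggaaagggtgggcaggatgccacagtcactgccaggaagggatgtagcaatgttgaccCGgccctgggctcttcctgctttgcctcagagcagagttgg

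The 2 genes with the widest difference between the cell types, Nr2f2 and Lrg1, had 1 and 2 CpG in these windows, and 18.8% and 29% of 32851 upstream windows held no more than that. Ephb4 had 12 CpG (68.5% of windows held no more) and Nrp2 had 32 (96%), against a median of 6. GC content was 50% for Nr2f2, 64% for Ephb4, 72.4% for Nrp2 and 55.2% for Lrg1, against a median of 52.4%. With 4 genes this is a description. Of 5 motifs searched on both strands, TGGGAA occurred once, upstream of Lrg1 at bases 101 to 96 before the start, and 21.6% of all windows hold it. These letters are the core of the site read by RBPJ, the DNA-binding partner of Notch, and a match of the core alone does not show a bound site. The nuclear receptor half-site AGGTCA, held by 14% of windows, was not among the letters of the 4 windows. The same was so for the SOX motif AACAAT (9.42% of windows), for the signal transducer motif TTCNNNGAA (7.02%) and for GATAAG (6.55%), the motif of the zinc-finger family that is named after it. Only 1 start for each gene was examined, and the gene bodies follow at chr7:70351946-70366746 for Nr2f2, chr5:137350109-137374522 for Ephb4, chr1:62703317-62818692 for Nrp2 and chr17:56119678-56121946 for Lrg1.

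Across the mean of the 3 tissues, Lrg1 was 7.12-fold and Nr2f2 3.91-fold higher in HEC than in capillary cells, Ephb4 was 1.44-fold lower, and Nrp2 did not pass the test. The arrays thus placed 2 of the 4 genes higher and 1 lower at an adjusted p under 0.05 (limma, Benjamini-Hochberg over 19938 genes), where 18% of all genes were higher and 15.9% lower. A measured difference in bulk RNA of sorted cells cannot be split into fewer cells of a type and less RNA per cell, which cannot be told apart here. By size of difference Lrg1 ranked 81 and Nr2f2 201 of the 19938 genes.

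Nr2f2, the transcription factor of vein fate, read 1.25, 0.95 and 1.38 in the HEC arrays of Peyer's patches, against -1.31, -1.38 and -1.26 in their capillary arrays. In mesenteric nodes it read 0.89 and 1.24 in MAdCAM1+PNAd+ HEC and 0.97 and 1.25 in MAdCAM1+ HEC, against -1.13 and -0.81 in capillary cells. In peripheral nodes it read 0.43, 0.71, 0.81 and 0.99 in HEC, against -0.62, -0.40 and -0.78 in capillary cells. Every HEC array lay above every capillary array, as did 4.36% of all genes over the 19 arrays. The difference was 2.51 ± 0.15 in Peyer's patches (SE, adjusted p = 2.07e-09), 2.06 ± 0.16 in mesenteric nodes (adjusted p = 6.57e-08) and 1.33 ± 0.14 in peripheral nodes (adjusted p = 2.07e-06). The share of all genes called in either direction was 19.5% in Peyer's patches, 15.2% in mesenteric nodes and 24.6% in peripheral nodes.

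**Figure D1:**
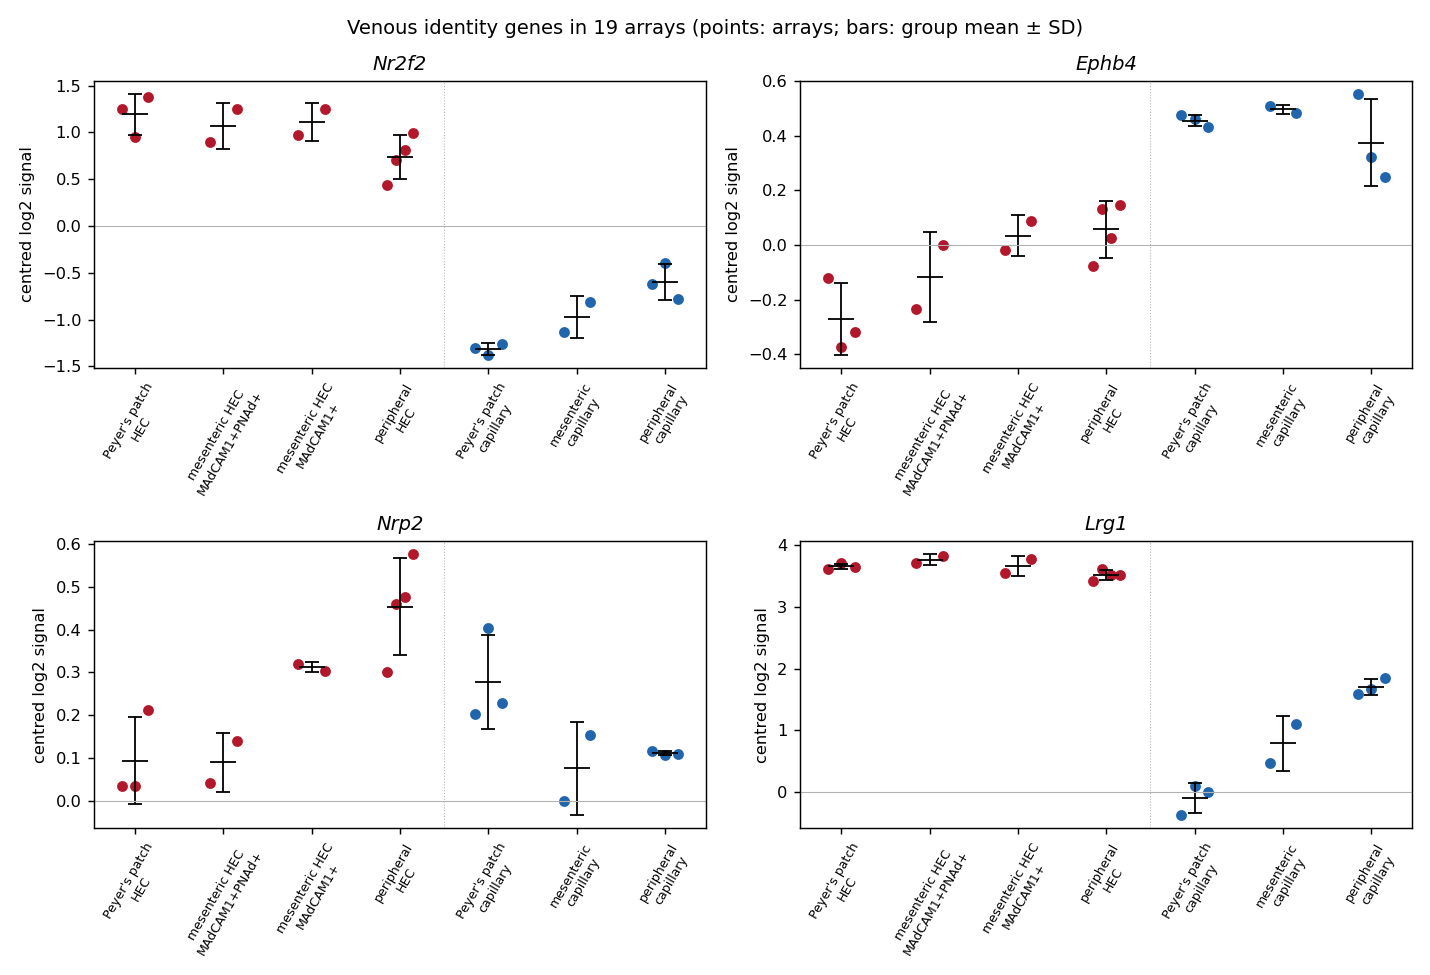
Centred log2 signal of Nr2f2, Ephb4, Nrp2 and Lrg1 (y axes, 1 panel each) in the 4 HEC groups (red) and 3 capillary groups (blue); points are arrays and bars the group mean ± SD. Nr2f2 and Lrg1 lie higher in every HEC array and Ephb4 lower, while Nrp2 ranges from 0.037 to 0.57 in HEC and from 0 to 0.40 in capillary cells.

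Ordered by mean, Nr2f2 stood at 1.19 ± 0.22 in Peyer's patch HEC (SD), 1.11 ± 0.20 in MAdCAM1+ and 1.07 ± 0.25 in MAdCAM1+PNAd+ mesenteric HEC, 0.74 ± 0.23 in peripheral HEC, -0.60 ± 0.19 in peripheral capillary, -0.97 ± 0.23 in mesenteric capillary and -1.31 ± 0.060 in Peyer's patch capillary cells. The only neighbours in that order that differed by the test were peripheral HEC and peripheral capillary cells. The 4 HEC groups therefore were not separated from each other by neighbour, nor were the 3 capillary groups. Of the 21 pairs of groups, 13 passed the test for Nr2f2 and 12 for Ephb4, where 10.7% of all tests over genes and pairs did.

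Known partners and relatives of COUP-TFII did not move as a block. Of 13 measured genes of that list, 5 were higher in HEC and 5 lower, with a median of 0.02 log2 against -0.01 for all genes, and the 5 include Nr2f2 itself. Zfpm2 (FOG2), a zinc-finger cofactor that binds COUP-TFII, was higher by 0.92 ± 0.071. The closest relative Nr2f1 (COUP-TFI) was higher by 0.21 ± 0.073 (adjusted p = 0.0377). Sox18 (-0.92 ± 0.098) and Prox1 (-0.66 ± 0.13), which act with COUP-TFII when lymphatic fate is set, were both lower, as was the retinoid X receptor gene Rxra (-0.68 ± 0.051), a dimer partner of nuclear receptors.

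The Notch and arterial genes, on which COUP-TFII acts as a brake in veins, were lower in HEC nearly throughout. Of 22 measured, 20 were lower and 0 higher, with a median of -2.48 log2 against -0.01 for all genes. The largest were the chemokine Cxcl12 (-3.84 ± 0.078), the ephrin Efnb2 (-3.73 ± 0.074), the Notch target Hey1 (-3.68 ± 0.11) and the semaphorin Sema3g (-3.65 ± 0.091). The 2 that did not pass were the Notch ligand Dll1 (0.10 ± 0.093) and the zinc-finger gene Mecom (-0.11 ± 0.059).

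Ephb4, the venous Eph receptor, ran the other way from Nr2f2. It read -0.12, -0.37 and -0.32 in Peyer's patch HEC arrays, against 0.47, 0.46 and 0.43 in Peyer's patch capillary arrays. In mesenteric nodes it read -0.23 and 0 in MAdCAM1+PNAd+ HEC and -0.018 and 0.087 in MAdCAM1+ HEC, against 0.51 and 0.48 in capillary cells. In peripheral nodes it read -0.076, 0.13, 0.025 and 0.15 in HEC, against 0.55, 0.32 and 0.25 in capillary cells. The lowest capillary array, peripheral array 3, was still above the highest HEC array, a separation in this direction that 4.45% of all genes shared.

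The difference in Ephb4 was -0.73 ± 0.10 in Peyer's patches (SE, adjusted p = 3.31e-05), -0.54 ± 0.11 in mesenteric nodes (adjusted p = 0.00146) and -0.32 ± 0.094 in peripheral nodes (adjusted p = 0.0195). These are 1.65-fold, 1.45-fold and 1.25-fold lower levels in HEC. The peripheral call rested on single arrays: Ephb4 differed there by -0.23 without capillary array 1 (adjusted p = 0.0970) and by -0.27 without HEC array 1 (adjusted p = 0.0610). By mean the order was mesenteric capillary (0.50 ± 0.017, SD), Peyer's patch capillary (0.46 ± 0.022), peripheral capillary (0.38 ± 0.16), peripheral HEC (0.057 ± 0.10), MAdCAM1+ mesenteric HEC (0.035 ± 0.074), MAdCAM1+PNAd+ mesenteric HEC (-0.12 ± 0.17) and Peyer's patch HEC (-0.27 ± 0.13). Peripheral capillary and peripheral HEC were again the only neighbours that differed.

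The arterial ligand of Ephb4 was lower in HEC as well. The HEC minus capillary difference of Efnb2 was -4.01 ± 0.13 log2 in Peyer's patches, -3.89 ± 0.14 in mesenteric nodes and -3.28 ± 0.12 in peripheral nodes (SE), past the test in each. Of 22 measured Eph receptors, ephrins and adaptors, Ephb4 and Efnb2 among them, 10 were lower in HEC and 0 higher, with a median of -0.17. Beside Efnb2, the largest were Efna1 (-1.38 ± 0.11), the receptor Epha4 (-1.11 ± 0.10) and the receptor Epha2 (-0.73 ± 0.10). Ephb3 (-0.058 ± 0.060) and Ephb6 (-0.16 ± 0.080), other B-class receptors, did not pass.

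Nrp2 was the gene of the 4 whose levels did not separate the cell types over the tissues. It read 0.037, 0.037 and 0.21 in Peyer's patch HEC, against 0.20, 0.40 and 0.23 in Peyer's patch capillary cells. In mesenteric nodes it read 0.042 and 0.14 in MAdCAM1+PNAd+ HEC and 0.32 and 0.30 in MAdCAM1+ HEC, against 0 and 0.15 in capillary cells. In peripheral nodes it read 0.30, 0.46, 0.48 and 0.57 in HEC, against 0.12, 0.11 and 0.11 in capillary cells. The arrays overlapped in Peyer's patches and mesenteric nodes and did not overlap in peripheral nodes, where HEC lay higher as for 15.4% of all genes.

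In peripheral nodes Nrp2 was 1.27-fold higher in HEC (0.34 ± 0.083 log2, SE, adjusted p = 0.00596). It did not pass in Peyer's patches (-0.18 ± 0.089, 95% interval -0.37 to 0.0045, adjusted p = 0.185), in mesenteric nodes (0.12 ± 0.094, adjusted p = 0.511) or over the mean of tissues (0.094 ± 0.051, 95% interval -0.014 to 0.20, adjusted p = 0.186). The order by mean was peripheral HEC (0.45 ± 0.11, SD), MAdCAM1+ mesenteric HEC (0.31 ± 0.012), Peyer's patch capillary (0.28 ± 0.11), peripheral capillary (0.11 ± 0.0047), Peyer's patch HEC (0.095 ± 0.10), MAdCAM1+PNAd+ mesenteric HEC (0.091 ± 0.069) and mesenteric capillary cells (0.077 ± 0.11), and no neighbours differed. Of 21 pairs of groups 3 passed, and each had peripheral HEC as its higher side, against mesenteric capillary cells (0.38), Peyer's patch HEC (0.36) and peripheral capillary cells (0.34).

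While Nrp2 differed little, most genes of a list of its ligands, co-receptors and related genes of the same families were lower in HEC. Of 22 measured genes of that list, Nrp2 among them, 13 were lower and 3 higher, with a median of -0.51 log2. The lower genes included the paralog Nrp1 (-2.46 ± 0.062), which is the arterial counterpart, the ligand Vegfc (-1.60 ± 0.099) and its receptor Flt4 (VEGFR3, -1.49 ± 0.078). Lower as well were the receptor Kdr (VEGFR2, -1.02 ± 0.075) and Sema3f (-0.59 ± 0.066), a class 3 semaphorin that binds Nrp2. The semaphorins Sema3g (-3.65 ± 0.091) and Sema3c (-1.86 ± 0.087) were lower too. The 3 higher genes were Met (1.35 ± 0.12), the hepatocyte growth factor receptor, the plexin Plxna4 (0.59 ± 0.069) and Sema3b (0.22 ± 0.057).

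Lrg1, the secreted glycoprotein of venules, had the widest difference of the 4. It read 3.62, 3.71 and 3.66 in Peyer's patch HEC, against -0.37, 0.094 and 0 in Peyer's patch capillary cells. In mesenteric nodes it read 3.71 and 3.83 in MAdCAM1+PNAd+ HEC and 3.55 and 3.79 in MAdCAM1+ HEC, against 0.47 and 1.11 in capillary cells. In peripheral nodes it read 3.42, 3.62, 3.51 and 3.52 in HEC, against 1.59, 1.67 and 1.85 in capillary cells. The 11 HEC arrays lay within 3.42 to 3.83, while the capillary arrays ran from -0.37 to 1.85 with no overlap between the 3 tissues.

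The Lrg1 difference was 3.76 ± 0.14 log2 in Peyer's patches (SE, 13.5-fold, adjusted p = 5.98e-12), 2.93 ± 0.15 in mesenteric nodes (7.60-fold, adjusted p = 3.83e-10) and 1.81 ± 0.13 in peripheral nodes (3.51-fold, adjusted p = 2.45e-08). By mean the order was MAdCAM1+PNAd+ mesenteric HEC (3.77 ± 0.086, SD), MAdCAM1+ mesenteric HEC (3.67 ± 0.17), Peyer's patch HEC (3.66 ± 0.043), peripheral HEC (3.52 ± 0.082), peripheral capillary (1.71 ± 0.14), mesenteric capillary (0.79 ± 0.45) and Peyer's patch capillary cells (-0.093 ± 0.25). No neighbours among the HEC groups differed, whereas each step from peripheral HEC downward passed the test. Of 21 pairs of groups, 15 passed for Lrg1.

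Genes of the pathway in which Lrg1 acts went both ways. Of 22 measured genes of transforming growth factor beta signalling, Lrg1 among them, 6 were higher in HEC and 9 lower, with a median of -0.09 log2. Endoglin (Eng), the co-receptor that Lrg1 binds, did not pass, at -0.094 ± 0.048 (adjusted p = 0.157). The type I receptor Tgfbr1 was higher by 0.83 ± 0.12, while Acvrl1 (ALK1), the other type I receptor of endothelium, was lower (-0.70 ± 0.057), as was the type II receptor Tgfbr2 (-1.25 ± 0.068). The largest falls were in the ligand Tgfb2 (-2.70 ± 0.080) and in the target genes Id3 (-1.92 ± 0.10) and Id1 (-1.66 ± 0.10), whereas Id2 was higher by 0.53 ± 0.13.

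Lrg1 is induced by STAT3 in the acute-phase response, and 15 genes of that kind were measured. Of these 7 were higher in HEC and 2 lower, Lrg1 among the higher ones, with a median of 0.02 log2. Lcn2, an acute-phase siderophore-binding protein, was higher by 1.43 ± 0.26, and the cytokine receptor chains Il6st (gp130, 1.16 ± 0.083) and Lifr (1.13 ± 0.075) were higher. Stat3 itself (-0.095 ± 0.079, adjusted p = 0.414) and its feedback inhibitor Socs3 (-0.20 ± 0.099, adjusted p = 0.133) did not pass.

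The wider set of venous genes was split like the 4. Of 19 measured, the 4 included, 9 were higher in HEC and 7 lower, with a median of 0.21 log2. Besides Lrg1 and Nr2f2, the largest were Ackr1 (3.07 ± 0.11), the venular chemokine-binding receptor, and the carboxypeptidase Prcp (1.85 ± 0.087), while Vwf, the clotting factor carrier, was higher by 1.46 ± 0.14. The lower genes were led by Aplnr (-1.99 ± 0.088), the apelin receptor, followed by Flt4 (-1.49 ± 0.078), Tek (TIE2, -1.09 ± 0.11) and Emcn (endomucin, -1.01 ± 0.063). The lists share genes: Tek and Emcn are also pan-endothelial markers, of which 9 of 12 were lower in HEC, and Flt4 is also a lymphatic marker. The fall of Tek and Emcn is therefore not particular to venous genes. The 9 lymphatic markers went both ways, with 4 higher and 3 lower. By tissue, 7 were higher and 7 lower in Peyer's patches, where 8.9% of all genes were higher and 10.6% lower. In mesenteric nodes 7 were higher and 5 lower (7.87% and 7.31% of all genes), and in peripheral nodes 10 were higher and 7 lower (13.1% and 11.4%).

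**Figure D2:**
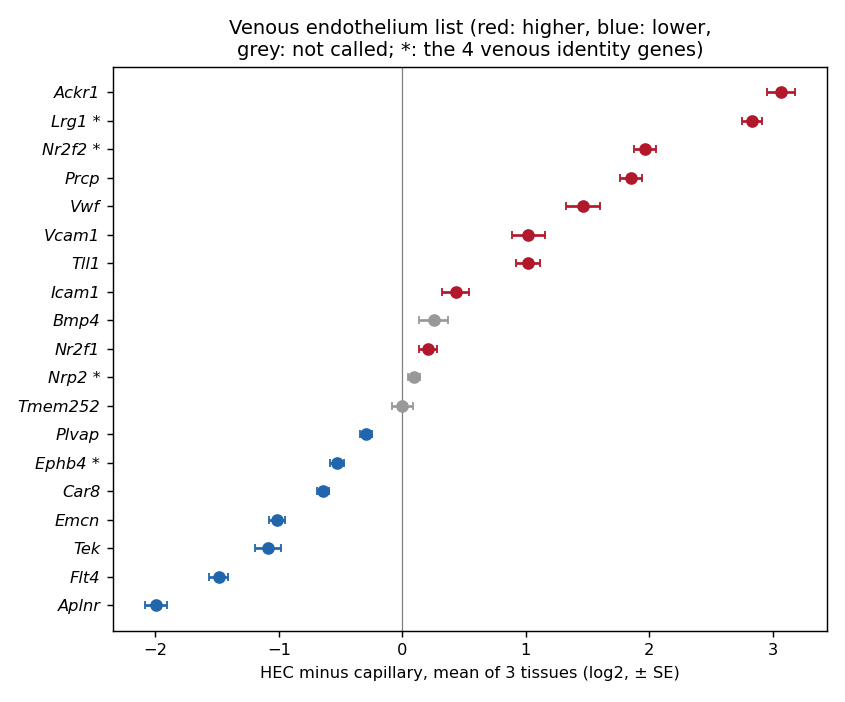
HEC minus capillary difference over the mean of 3 tissues (x axis, log2, bars ± SE) for the 19 measured venous genes (y axis), with the 4 venous identity genes starred. Red marks 9 genes higher in HEC, blue 7 lower and grey 3 that did not pass; the values run from -1.99 for Aplnr to 3.07 for Ackr1.

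The size of the HEC minus capillary difference depended on tissue for 3 of the 4 genes. It was larger in Peyer's patches than in peripheral nodes by 1.94 ± 0.20 log2 for Lrg1 (interaction, SE, adjusted p = 1.26e-05) and by 1.17 ± 0.21 for Nr2f2 (adjusted p = 0.00317). For Nrp2 it was lower in Peyer's patches by 0.52 log2 (-0.52 ± 0.12, adjusted p = 0.0204), and for Ephb4 the interaction of -0.41 ± 0.14 did not pass (adjusted p = 0.117). Across all genes 4.05% passed this interaction. Between mesenteric and peripheral nodes only Lrg1 of the 4 passed (1.12 ± 0.20, adjusted p = 0.0191, 0.416% of all genes), and none of the 4 did for Peyer's patches against mesenteric nodes (0.752% of all genes), with Lrg1 at 0.83 ± 0.21 (adjusted p = 0.103) and Nr2f2 at 0.44 ± 0.22 (adjusted p = 0.732) by limma. The Lrg1 interaction of mesenteric against peripheral nodes lost its call without mesenteric capillary array 1 (0.80, adjusted p = 0.197), without peripheral capillary array 3 (1.04, adjusted p = 0.0589) or without MAdCAM1+PNAd+ array 2 (1.08, adjusted p = 0.0502), and the Nrp2 interaction without Peyer's patch capillary array 2 (-0.46, adjusted p = 0.0707) or HEC array 1 (-0.49, adjusted p = 0.0615). That of Ephb4 gained a call without peripheral capillary array 1 (-0.50, adjusted p = 0.0484), and that of Lrg1 between Peyer's patches and mesenteric nodes without mesenteric capillary array 1 (1.15, adjusted p = 0.0152).

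**Figure D3:**
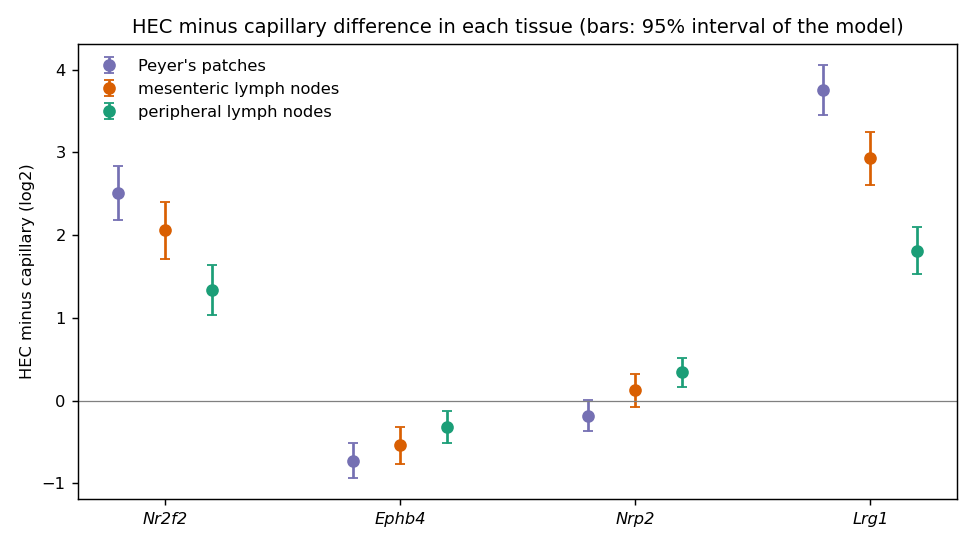
HEC minus capillary difference (y axis, log2) of the 4 genes (x axis) in Peyer's patches, mesenteric nodes and peripheral nodes; points are the model's estimates and bars their 95% intervals. Lrg1 stands at 3.76 in Peyer's patches, 2.93 in mesenteric nodes and 1.81 in peripheral nodes, and Nr2f2 at 2.51, 2.06 and 1.33 in that order of tissues.

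The tissue differences of Lrg1 that passed were those of capillary cells. Capillary Lrg1 was 3.48-fold lower in Peyer's patches than in peripheral nodes (-1.80 ± 0.14 log2, adjusted p = 4.20e-07, rank 48 of 19938, 4.64% of genes called). It was also lower in Peyer's patches than in mesenteric nodes (-0.88 ± 0.16, adjusted p = 0.00531, 1.86% called) and lower in mesenteric than in peripheral nodes (-0.91 ± 0.16, adjusted p = 0.0176, 0.291% called). In HEC, Lrg1 differed by 0.15 ± 0.13 between Peyer's patches and peripheral nodes (adjusted p = 0.504), by -0.055 ± 0.13 between Peyer's patches and mesenteric nodes and by 0.20 ± 0.12 between mesenteric and peripheral nodes, none past the test. Repeated quantile normalization moved the HEC difference to 0.62 between Peyer's patches and peripheral nodes (adjusted p = 0.0760) and to 0.41 between mesenteric and peripheral nodes (adjusted p = 0.275). The 2 mesenteric capillary arrays, at 0.47 and 1.11, decide the middle step: without array 1 the mesenteric minus peripheral difference was -0.60 (adjusted p = 0.431), and without array 2 the Peyer's patch minus mesenteric difference was -0.57 (adjusted p = 0.191). Without peripheral capillary array 3 Lrg1 differed between mesenteric and peripheral capillaries by -0.84 (adjusted p = 0.0589).

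Other venous genes also depended on tissue, and not in one direction. Of the 19 measured, the 4 included, the interaction of Peyer's patches against peripheral nodes was positive and past the test for 4 and negative and past it for 6. Like Lrg1 and Nr2f2, Ackr1 had its higher difference in Peyer's patches, at 3.69 ± 0.19 log2 in Peyer's patches, 3.06 ± 0.20 in mesenteric nodes and 2.46 ± 0.18 in peripheral nodes (interaction 1.23 ± 0.26, adjusted p = 0.0125). Aplnr stood at 0.040 ± 0.15 in Peyer's patches, -2.23 ± 0.16 in mesenteric nodes and -3.78 ± 0.14 in peripheral nodes (interaction 3.82 ± 0.21, adjusted p = 1.18e-08). Tll1, a secreted metalloprotease gene, did not pass in Peyer's patches (-0.017 ± 0.17, adjusted p = 0.966) and was higher in HEC of mesenteric (1.17 ± 0.18) and peripheral nodes (1.90 ± 0.16), with an interaction of -1.91 ± 0.23 (adjusted p = 0.000102). Among the ligands, Vegfc gave -2.26 ± 0.17 in Peyer's patches, -1.43 ± 0.18 in mesenteric nodes and -1.10 ± 0.16 in peripheral nodes (interaction -1.15 ± 0.23, adjusted p = 0.00843), and the interaction of Efnb2 was -0.73 ± 0.17 (adjusted p = 0.0232). Peripheral capillary arrays 1 and 2 had more high endothelium marker signal than other capillary arrays. Leaving them out keeps 1 peripheral capillary array, whose spread is taken from the other groups. In that fit the interactions were 3.75 for Aplnr, -1.96 for Tll1, 1.27 for Ackr1, -0.84 for Vegfc and -0.70 for Efnb2. These are effect sizes alone, and they do not show that any of the calls was kept.

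Capillary Nr2f2 followed the same order of tissues. It was lower in Peyer's patches than in peripheral nodes (-0.72 ± 0.15 log2, adjusted p = 0.00846), and lost the call without peripheral capillary array 2 (-0.62, adjusted p = 0.0584). The steps by way of mesenteric nodes were -0.34 ± 0.17 (Peyer's patches minus mesenteric nodes, adjusted p = 0.705) and -0.37 ± 0.17 (mesenteric minus peripheral, adjusted p = 0.977), and neither passed. For both Lrg1 and Nr2f2 the capillary arrays of the 3 tissues did not overlap, with peripheral nodes highest and Peyer's patches lowest, which 1.14% of all genes shared. In HEC the Nr2f2 difference had the other sign, 0.46 ± 0.14 between Peyer's patches and peripheral nodes, and did not pass (adjusted p = 0.0673), but it did without Peyer's patch HEC array 2 (0.58, adjusted p = 0.0489) or peripheral HEC array 4 (0.54, adjusted p = 0.0475).

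Ephb4 and Nrp2 differed between tissues in HEC. Peyer's patch HEC had less Nrp2 than peripheral HEC (-0.36 ± 0.083 log2, adjusted p = 0.0138) and less Ephb4 (-0.33 ± 0.094, adjusted p = 0.0450), where 6.65% of all genes were called. In neither gene did the arrays of these 2 HEC groups overlap, with Peyer's patches lower as in 8.99% of genes. The Nrp2 call was lost without Peyer's patch array 1 (-0.33, adjusted p = 0.0780) or 2 (-0.33, adjusted p = 0.0587) or peripheral array 4 (-0.32, adjusted p = 0.0505), and the Ephb4 call was lost on leaving out any of 12 single arrays, with a highest adjusted p of 0.196 (-0.28) without Peyer's patch array 2. Peyer's patch minus peripheral capillary cells gave 0.17 ± 0.089 for Nrp2 (adjusted p = 0.493) and 0.081 ± 0.10 for Ephb4 (adjusted p = 0.882). The HEC and capillary differences of Ephb4 were not shown to differ, since its interaction did not pass. Mesenteric against peripheral HEC (2.69% of genes called) and Peyer's patch against mesenteric HEC (1.2%) gave no call for any of the 4 genes.

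The MAdCAM1+PNAd+ and MAdCAM1+ gates of mesenteric HEC did not differ by the test in any of the 4 genes, and limma called 4 genes of 19938 (0.0201%). The differences were -0.22 ± 0.11 for Nrp2 (unadjusted p = 0.0584), -0.15 ± 0.12 for Ephb4, -0.043 ± 0.19 for Nr2f2 and 0.10 ± 0.18 for Lrg1. Nrp2 did not overlap between the gates, with 2 arrays each, and was higher in MAdCAM1+ cells, as were 12.8% of all genes.

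Some genes ran almost parallel to a member over the 19 arrays, by Pearson's r among 5086 genes with a range of at least 1 log2. This is a description: the arrays fall into HEC and capillary clusters, and a gene that differs between them will score high. For Nr2f2 these were the potassium channel Kcnh1 (0.984), the CD47 receptor Sirpa (0.982), the phosphatase Ptpn3 (0.979), the orphan receptor Esrrg (0.977) and fatty acid synthase Fasn (0.973), with Enpp3 (-0.977), the netrin receptor Unc5b (-0.976) and Rasgrf2 (-0.975) at the other end. Lrg1 shared Sirpa at its top (0.977), followed by Gpr182 (0.974), Pglyrp1, Cul7 and Abca2 (each 0.972), with Pik3r6 (-0.988), the kinase Bmx (-0.987) and Hcar1 (-0.986) opposite.

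For Ephb4 the closest included Rxra (0.971), thrombomodulin Thbd (0.948), Git2 (0.947) and Crip2 (0.946), and the chemokine receptor Ccr10 (-0.953), Ccdc33 (-0.939) and Egfr (-0.931) ran opposite. Nrp2 had no gene as close, with Aste1 at 0.815, Tln2 at 0.791, Mrs2 at 0.789, Rabep1 at 0.778 and Ecm2 at 0.776, and Rspo1 (-0.777), H2bc9 (-0.744) and Ccdc85c (-0.734) opposite.

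Marker genes bore on the labels as follows. The high endothelium list was drawn up with Madcam1 in it, and the labels give MAdCAM1 and PNAd as gates of mesenteric HEC. A higher level of these markers in HEC may thus be partly set by the sort. All 5 measured high endothelium markers were higher in HEC, with a median difference of 4.02 log2, and their mean level lay between 3.63 and 4.51 in HEC arrays. In capillary arrays it was -0.98 to -0.40 in Peyer's patches, -0.43 to -0.34 in mesenteric nodes, and 1.40, 1.08 and -0.045 in peripheral arrays 1, 2 and 3. In the same 3 peripheral capillary arrays, in that order, Lrg1 read 1.59, 1.67 and 1.85 and Nr2f2 read -0.62, -0.40 and -0.78. What part the high endothelium signal has in these values was not tested. Leaving out peripheral capillary arrays 1 and 2 keeps 1 array of that group, which is assumed to vary like the other groups, and a call lost there at a like value goes with a wider error. In that fit the Lrg1 interaction of Peyer's patches against peripheral nodes was 2.09 (adjusted p = 0.000291) and that of Nr2f2 0.99 (adjusted p = 0.0753), the capillary Nr2f2 difference was -0.54 (adjusted p = 0.455), the peripheral HEC minus capillary difference was -0.19 for Ephb4 (adjusted p = 0.381) and 0.34 for Nrp2 (adjusted p = 0.105), and the Nrp2 interaction was -0.53 (adjusted p = 0.141).

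**Figure D4:**
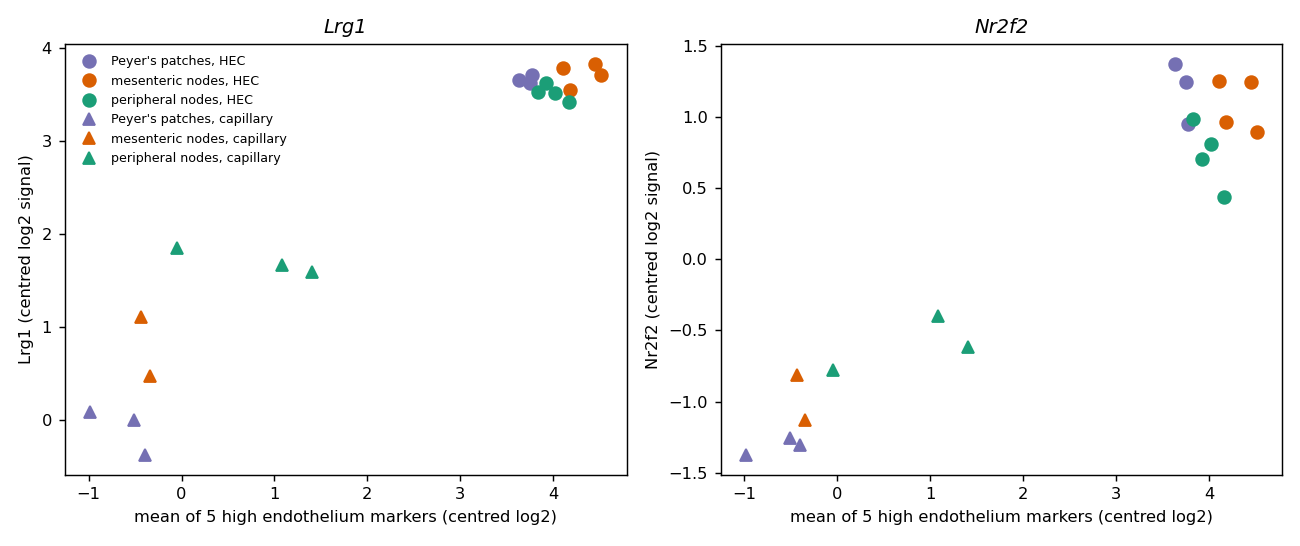
Lrg1 (left) and Nr2f2 (right) in each array (y axes, centred log2) against the mean of 5 high endothelium markers (x axes, centred log2); circles are HEC and triangles capillary arrays, coloured by tissue. Peripheral capillary arrays 1 and 2 stand at marker means of 1.40 and 1.08, apart from the other capillary arrays and far below the HEC arrays at 3.63 to 4.51.

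Markers of other cells moved less evenly. Over the mean of tissues, 18% of all genes were higher in HEC and 15.9% lower. Of 11 neutrophil markers, a possible source of Lrg1, 0 were higher in HEC and 1 was lower, and their mean level was -0.18 to 0.22 in HEC and -0.074 to 0.18 in capillary arrays. Of 9 lymphatic markers, which bear on Nr2f2 and Nrp2, 4 were higher and 3 lower, with Lyve1 higher by 3.19 ± 0.22 and Prox1 lower. Of 11 pericyte markers 9 were lower and 1 higher (mean level -0.83 to -0.41 in HEC and -0.12 to 1.06 in capillary arrays), and of 10 fibroblast markers 1 was higher and 1 lower. Of 12 pan-endothelial markers 9 were lower and 0 higher, of 8 B cell markers 6 were higher and 0 lower, and all 11 immediate-early genes were lower in HEC. Of 9 macrophage and dendritic cell markers 1 was higher and 1 lower, of 7 T cell markers 3 were higher and 1 lower, and of 9 intestinal epithelium markers 0 were higher and 1 lower.

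Intestinal epithelium markers also moved with tissue, beside the differences of the 4 genes between Peyer's patches and peripheral nodes. Between these tissues 6.65% of all genes were called in HEC and 4.64% in capillary cells, in either direction. In HEC 7 of the 9 were higher in Peyer's patches (median 0.79 log2), with a mean level of 0.41 to 0.91 in Peyer's patch HEC arrays and -0.25 to -0.035 in peripheral HEC arrays. In capillary cells 2 of the 9 were higher (median 0.57), with 0.13, 0.87 and 1.29 in Peyer's patch arrays 1, 2 and 3 and -0.059 to 0.12 in peripheral arrays. Of the 7 T cell markers 3 were lower in Peyer's patch than in peripheral HEC (mean level -0.11 to 0.23 and 0.28 to 0.40) and 1 in capillary cells. Of the 9 macrophage and dendritic cell markers 0 passed in HEC and 1 was lower in Peyer's patch capillary cells (mean level -0.17 to -0.090, against -0.0020 to 0.68 in peripheral capillary arrays). Of the 8 B cell markers 3 were lower in Peyer's patch than in peripheral HEC (mean level 0.11 to 0.27 and 0.53 to 0.84). In capillary cells 0 of them passed. Of the 11 pericyte markers 0 passed in HEC, and 4 were lower and 1 higher in Peyer's patch capillary cells. Their mean level was -0.12 to 0.17 there, against 0.36 to 1.06 in peripheral capillary arrays. Of the 9 lymphatic markers 1 was lower in Peyer's patch HEC, and 3 were lower and 1 higher in capillary cells. The part of these cells and of the early-response genes in the differences of the 4 genes was not tested.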

How the data were processed

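Affymetrix whole-transcript arrays were hybridised with labelled cDNA of sorted cells, per the labels' protocols. Per the submitters' processing notes, the deposited log2 values came from RMA and Partek, with no versions given. RMA corrects background, quantile-normalises and summarises probes, and it compresses large folds. The deposited log2 values were centred within probe sets: the lowest was -4.092 and the highest 6.128, with an exact 0 in 54.47% of probe sets. The baseline is not given in the sources used here, so whether a gene was detected, and at what level, is unknown. Their direction follows from the log2 scale.

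Of 28856 probe sets, 21789 had 1 gene symbol, 1621 had several and 5446 had none, and 21698 matched a RefSeq gene table (GRCm38.p6) by Entrez identifier, which changed 0 symbols. The mean was taken for the 999 genes with several probe sets. A mean for each of the 7 groups was fitted to the 19 arrays with limma 3.58.1 (R 4.3.3; 12 residual degrees of freedom), the mean of both gates standing for mesenteric HEC. Tests were two-sided, and p-values were adjusted by Benjamini-Hochberg in each contrast over 19938 genes (threshold 0.05). The labels give no batch or scan date. Nothing in them says that replicates are separate animals or sorts, so a p-value reflects only how these arrays vary, which may be technical. The number of arrays limits the precision, and no 2 arrays held identical values: over genes, differences within a group had an SD of 0.196 to 0.450.

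The members and gene lists were chosen with earlier results of these data known. Genes named were the 4 members, the 5 genes most like and 3 least like each, in each list up to 4 called genes with the largest differences, and stated ligands and partners of the members; 1 gene like Ephb4 is not reported here. Other list genes named here (Prcp, Vwf, Tll1, Tek, Emcn, Kdr, Met, Plxna4, Sema3b, Acvrl1, Tgfbr1, Id2, Prox1, Dll1, Mecom, Ephb3, Ephb6, Socs3 and Lyve1) were chosen after their values were seen. Alternatives were each array left out, a replicate block, array quality weights, repeated quantile normalization, median centring, only the compared groups, a range filter, probe sets in place of genes, a robust prior, and a fit without peripheral capillary arrays 1 and 2, which was also made, after seeing the data, for the interactions of other venous genes. The test was checked on simulated data over 19938 genes, with 100 genes changed by 1 log2. Of these 99% were recovered, and 15 unchanged genes were called as well. Those 15 made up a larger share of the calls than the adjusted p threshold is set to allow. The simulation changed far fewer genes than the 6751 called over the mean of tissues, so it says little about the reported calls. Figures used matplotlib 3.10.9 in Python 3.11.15.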

Additional observations from a re-analysis of the deposited data

Results flagged for a closer look

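The HEC minus capillary difference of Lrg1 depended on tissue by limma's interaction test. It was larger in Peyer's patches than in peripheral nodes by 1.94 log2 and larger in mesenteric than in peripheral nodes by 1.12 log2. The difference of Nr2f2 was larger in Peyer's patches than in peripheral nodes by 1.17 log2. For Nrp2 the same interaction was -0.52, with differences of -0.18 in Peyer's patches and 0.34 in peripheral nodes. In the only group of 4 arrays, peripheral HEC, none of the 4 genes had an array that stood apart by Dixon's test.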

How the results depend on the processing

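Of 1568 values (56 results of the 4 genes under 28 alternatives), 1506 kept their direction and their side of the threshold, 5 of uncalled results changed sign within the SE, 42 lost a call, 12 gained one, 3 results without a call moved by more than the spread and 0 called results turned round. In HEC minus capillary cells over the mean of tissues and in each tissue, Nr2f2 and Lrg1 passed under all 28, and Ephb4 failed only in peripheral nodes. Without peripheral capillary arrays 1 and 2 that difference was -0.19 for Ephb4 and 0.34 for Nrp2, the capillary difference of Peyer's patches against peripheral nodes was -0.54 for Nr2f2 and that of mesenteric against peripheral nodes -1.06 for Lrg1, and the interactions were 0.99 (Nr2f2) and -0.53 (Nrp2) for Peyer's patches and 1.26 (Lrg1) for mesenteric nodes, each against peripheral nodes and none past the threshold with the 1 array left. A fit of only the compared groups ended the calls of Ephb4 (-0.33) and Nrp2 (-0.36) for Peyer's patch HEC against peripheral HEC, and of Lrg1 in mesenteric against peripheral (-0.91) and Peyer's patch against mesenteric capillaries (-0.88). Repeated quantile normalization gave -0.30 for Ephb4 for Peyer's patch HEC against peripheral HEC, and for Lrg1 -0.92 in mesenteric against peripheral capillaries, 1.33 in that interaction, 0.20 in Peyer's patch against mesenteric HEC and -0.20 between the mesenteric gates, and the range filter (15169 genes) gave -0.33 for Ephb4 for Peyer's patch HEC against peripheral HEC, none past the threshold; the cause was not tested.

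Replicate numbers were not shown to pair the arrays: r of the deviations was over 0.1 in 17 of 41 same-numbered pairs, and 7 of 19 arrays correlated best with their own number. With the replicate block, 6283 genes were called over the mean of tissues, against 6751 without it. The replicate block gave 0.54 for Nr2f2 (called) and -0.30 for Ephb4 (not called) for Peyer's patch HEC against peripheral HEC, 0.88 for the Lrg1 interaction of Peyer's patches against mesenteric nodes (called), and 0.18 for Nr2f2 between the gates. Array quality weights stopped before convergence and gave Peyer's patch HEC array 1 a weight of 41.6, so their values are uncertain: for Nrp2 -0.30 in HEC minus capillary cells of Peyer's patches, -0.16 in Peyer's patch against mesenteric HEC and -0.42 in that interaction, 0.54 for Nr2f2 for Peyer's patch HEC against peripheral HEC, -0.28 for the Ephb4 interaction of the same tissues and 0.71 for the Lrg1 interaction of Peyer's patches against mesenteric nodes, all called.

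With single arrays left out, Ephb4 in peripheral HEC minus capillary cells ranged from -0.38 to -0.23. For Peyer's patch HEC against peripheral HEC, Nr2f2 ranged from 0.36 to 0.58, Ephb4 from -0.40 to -0.28 and Nrp2 from -0.42 to -0.32. In capillaries, Nr2f2 ranged from -0.81 to -0.62 (Peyer's patches minus peripheral nodes), and Lrg1 from -1.23 to -0.60 (mesenteric minus peripheral) and from -1.20 to -0.57 (Peyer's patches minus mesenteric). Interactions of Peyer's patches against peripheral nodes ranged from -0.50 to -0.35 for Ephb4 and from -0.58 to -0.46 for Nrp2, and those of Lrg1 from 0.80 to 1.43 (mesenteric against peripheral) and from 0.51 to 1.15 (Peyer's patches against mesenteric).

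Under the 28 alternatives limma called (in brackets, as reported) 5827 to 8818 genes (6751) in HEC minus capillary cells over the mean of tissues, 2851 to 10439 (3881) in Peyer's patches, 1791 to 4087 (3027) in mesenteric and 2655 to 6987 (4897) in peripheral nodes. Within HEC it called 712 to 11209 (1326) for Peyer's patches minus peripheral nodes, 80 to 7138 (239) for Peyer's patches minus mesenteric nodes, 285 to 1199 (537) for mesenteric minus peripheral nodes and 0 to 17 (4) for the gates. Within capillary cells it called 354 to 1516 (925), 167 to 790 (370) and 0 to 124 (58) in the same order of tissues, and for the interactions 357 to 6443 (808), 73 to 1703 (150) and 35 to 155 (83). The array weights gave 10439, 11209, 7138 and 6443. Without Peyer's patch HEC array 3, limma called 5300 genes for Peyer's patch minus peripheral HEC and 946 for Peyer's patch minus mesenteric HEC. It then called 2921 for the interaction of Peyer's patches against peripheral nodes. Without Peyer's patch HEC array 1 these counts were 712, 98 and 518. Under 27 alternatives, rerun for lists after seeing the data, 8 to 9 venous genes were higher and 6 to 7 lower, and 20 arterial and Notch genes lower.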
